A study of Mus musculus with 72 samples.

Results

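Transcripts of 55 excision and mismatch repair genes were measured in 36 mouse tumours, among 1224 genes read by 2 targeted amplicon panels. The 55 were all panel genes whose symbols name factors of base excision, mismatch and nucleotide excision repair, or the polymerases, clamp, clamp loader, ligases and DNA-binding proteins that finish these repairs. They were chosen by symbol, with earlier results of these data known. Panel 2 supplied 54 of them and panel 1 supplied Neil3; the labels describe an immuno-oncology kit and a custom DNA repair and TGF-β panel without numbering them. Of the 55, 3 were on both panels, among them Neil3 and Rpa1, and each was taken from the panel with its larger total count.

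The tumours grew from 4T1, a transplantable BALB/c mammary carcinoma cell line, injected into the thigh muscle of female BALB/c mice aged 6 to 12 weeks. Injection was on day -6, treatment on day 0 and killing on day 6, with 9 mice in each of 4 groups. Control mice received 400 µg of isotype antibody. The M7824 group received 492 µg of bintrafusp alfa, whose code name is M7824, an anti-PD-L1 antibody joined to a receptor trap for TGF-β. The radiation group received radiation and 400 µg of the isotype antibody, and the M7824+radiation group received radiation and 492 µg of bintrafusp alfa. The sources used here do not give the radiation dose. All groups rest on 1 transplanted cell line in an immunocompetent host of its own strain, and the labels call the tissue orthotopic although the cells were placed in muscle.

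As background, base excision repair starts when a glycosylase removes a damaged base, after which an endonuclease opens the strand and a polymerase, a scaffold and a ligase close it. Mismatch repair uses MutS heterodimers to find replication errors and MutL heterodimers with an exonuclease to remove the faulty stretch. Nucleotide excision repair removes bulky lesions: recognition factors find them, the TFIIH helicase complex opens the helix, and structure-specific nucleases cut out a short piece. Many of the factors that resynthesise the gap also copy DNA in every dividing cell.

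A level is given as CPM, the count per 1000000 counts of its panel after TMM scaling, a method that sets the bulk of the panel genes equal between libraries. Amplicons differ in efficiency, so levels were compared between tumours and not between genes. A gene was called when the adjusted p of the edgeR quasi-likelihood test, over 1038 tested genes, was below 0.05, and all 55 genes passed the filter on low counts. Because a targeted panel can shift as a whole, each call was repeated with library factors from 9 reference genes on the panels. Under those factors the median log2 fold change of all tested genes was 0.19 in radiation against control, 0.14 in M7824+radiation against control and 0.20 in M7824+radiation against M7824. In radiation against control all 9 reference genes had negative log2 fold changes on the TMM scale (median -0.14, from -0.41 to -0.06), and 3 were called lower. Which scaling is nearer to the change per cell cannot be told apart from these data, and in bulk RNA fewer cells of a type and less RNA per cell look the same.

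The 55 genes held 9.21% of the counts of panel 2, whose libraries had 314621 to 841046 counts. Depth moved with the groups: the median panel 2 library had 538121 counts in control, 365797 with M7824, 626610 with radiation and 675225 with M7824+radiation, and its part in the results was not tested beyond the scalings above. The epithelial marker Epcam, which checks for tumour cells, had 5410 to 14400 CPM in the control and radiation libraries and was lower after radiation (log2 fold change -0.81, SE 0.11, adjusted p = 2.96e-07). It was also lower with M7824 (-0.30, adjusted p = 0.0384) and with M7824+radiation (-0.75, adjusted p = 8.51e-07). Of 8 epithelial markers 2 were on the panels, and the other, Muc1, went the opposite way after radiation (2.32, adjusted p = 3.41e-10). The 2 skeletal muscle markers on the panels summed to 256 to 5680 CPM over all libraries. The 7 T cell markers summed to a median of 42.9 CPM in control (29.3 to 166), 140 with M7824 (74.6 to 294), 21.2 with radiation (10.5 to 133) and 29.9 with M7824+radiation (24 to 102). With TMM, of the markers tested after radiation, 3 of 4 for macrophages were higher and 1 lower, 2 of 5 for fibroblasts were lower, and 0 of 3 for neutrophils and 0 of 1 each for endothelium and all leukocytes (Ptprc) were called. With M7824, 2 macrophage markers were higher and 1 lower, 4 fibroblast markers and the endothelial one were lower, and the neutrophil markers and Ptprc were not called. Neither muscle marker was called in these 2 comparisons. Of 7 T cell markers, 2 were lower after radiation and 3 higher with M7824. These marker calls changed in part with the reference genes. After radiation Ptprc was then higher (0.36, adjusted p = 0.00439). The lower calls of the fibroblast marker Fap and the T cell marker Cd5 after radiation were lost (adjusted p = 0.13 and 0.121). The neutrophil marker Cxcr2 was lower with M7824 (-0.43, adjusted p = 0.0402). In M7824+radiation against control with TMM, all 3 neutrophil, 4 of 5 fibroblast and 3 of 7 T cell markers and the endothelial one were lower. In that comparison 2 macrophage markers were higher and 1 lower, and the muscle marker Myod1 was higher (1.58, adjusted p = 0.0108). With the reference genes the Cxcr2 and Cd5 calls there were lost (adjusted p = 0.0751 and 0.0657), and the macrophage marker Msr1 was higher (0.26, adjusted p = 0.0289). Against radiation, the combination was lower in Ptprc (-0.32, adjusted p = 0.0113), the endothelial marker, 2 macrophage markers and 1 fibroblast marker. Against M7824, the combination was lower in 6 T cell markers, 1 neutrophil marker, Ptprc and the endothelial marker, and Myod1 was higher (1.32, adjusted p = 0.0294). There 2 macrophage markers were higher and 2 lower, and 1 fibroblast marker was higher and 1 lower. Epcam was lower (-0.45, adjusted p = 0.000721) and Muc1 higher (2.86, adjusted p = 7.06e-12). The Ptprc and endothelial calls against M7824 were lost with the reference genes (adjusted p = 0.451 and 0.436). So were the lower calls there of Msr1 and the neutrophil marker Csf3r (adjusted p = 0.176 and 0.143). The fibroblast marker Col1a2 was then higher against M7824 (0.48, adjusted p = 0.0121). Against radiation, the fibroblast marker Pdgfrb and Csf3r were then lower (adjusted p = 0.0241 and 0.0333). Of 4 B cell markers 3 were on the panels and 0 passed the filter. The part of cell composition in the differences below was not tested.

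Tumours given radiation had less Pms1 transcript of the mismatch repair system and less Ccnh, the cyclin of TFIIH, than control tumours. They had more Msh4, a MutS homologue best known from meiosis, more Parp3, Polb and Xrcc1 of strand break and base excision repair, more of the exonuclease Exo1 and the replicative polymerase Pole, and more of the TFIIH helicase Ercc2. Each of these was called in the same direction under both scalings. Msh4 passed the filter on low counts through the irradiated groups, where it is high, so its call is not independent of that filter. The Pole and Ercc2 calls were lost when TMM used the other genes only (adjusted p = 0.0737 and 0.0731). With TMM 7 of the 55 genes were higher (12.7%, against 20.5% of all tested genes) and 20 were lower (36.4%, against 21.1%). With the reference genes 17 were higher (all genes: 40.7%) and 3 lower (all genes: 7.61%). The median log2 fold change of the 55 genes was -0.08 beside -0.01 for all genes with TMM, and 0.08 beside 0.19 with the reference genes, a difference of -0.07 and of -0.11 in turn.

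M7824 alone gave fewer calls. The glycosylase Neil3, the ligase Lig1, Exo1, Pole, Msh6 of the mismatch sensor and the incision factor Ercc1 were lower under both scalings. With TMM 5 genes were higher (all genes: 12.5%) and 6 lower (all genes: 14.5%). The reference genes gave 0 higher (all genes: 9.54%) and 12 lower (all genes: 17.6%). The 5 higher with TMM alone were Ccnh, Ercc2, Ercc3, Ercc4 and Mlh3, so no gene rose with M7824 under both scalings.

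In M7824+radiation against control 8 genes were higher (all genes: 23.4%) and 22 lower (all genes: 24.2%) with TMM, and 11 were higher (all genes: 37.3%) and 16 lower (all genes: 15.1%) with the reference genes. The 8 higher genes were called under both scalings and included Msh4, Parp3, Polb, Xrcc1, Ercc2, Rfc1 and Rpa1, and 16 of the 22 lower genes were lower under both. Against M7824, the combination had 9 genes higher (all genes: 27.1%) and 22 lower (all genes: 26.4%) with TMM, and 21 higher (all genes: 45.5%) and 8 lower (all genes: 14.2%) with the reference genes. All 9 of those higher genes (Exo1, Lig1, Msh4, Pms2, Pole, Polh, Rfc1, Rpa1 and Xrcc1) and 8 of the 22 lower genes (among them Apex1, Apex2, Ccnh, Ercc4, Msh3, Nthl1 and Xpc) kept their call with the reference genes.

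Adding M7824 to radiation gave few calls. Ccnh alone was called against radiation with TMM, higher (all genes: 3.66%), and 0 genes were lower in the edgeR test (all genes: 7.13%), while 8 of the 55, and 257 of all 1038 tested genes, had an unadjusted p under 0.05. The reference genes gave 0 higher (all genes: 1.83%) and 3 lower (all genes: 9.25%), which were Parp2, Ddb2 and Ercc4. DESeq2 called 2 higher, Ccnh among them, and its share over all tested genes was not worked out. The interaction, which asks whether the change with M7824 differed between irradiated and unirradiated tumours, was called for Lig1 and Msh6 with TMM, both higher (all genes: 3.37% higher and 4.91% lower). With the reference genes it was called for Lig1, higher, and Ercc4, lower (all genes: 2.12% higher and 3.76% lower). Over the 5 pairwise comparisons with TMM, which share groups, 13 of the 55 genes were called in none (23.6%, against 25% of all tested genes), 7 in 1 (12.7%, against 16.9%), 14 in 2 (25.5%, against 20.4%), 20 in 3 (36.4%, against 29.4%), 0 in 4 (against 6.84%) and Ccnh in all 5 (1.82%, against 1.45%). With the reference genes 12 were called in none (21.8%, against 19.7%), 13 in 3 (23.6%, against 33.7%) and 0 in all 5.

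**Figure D1:**
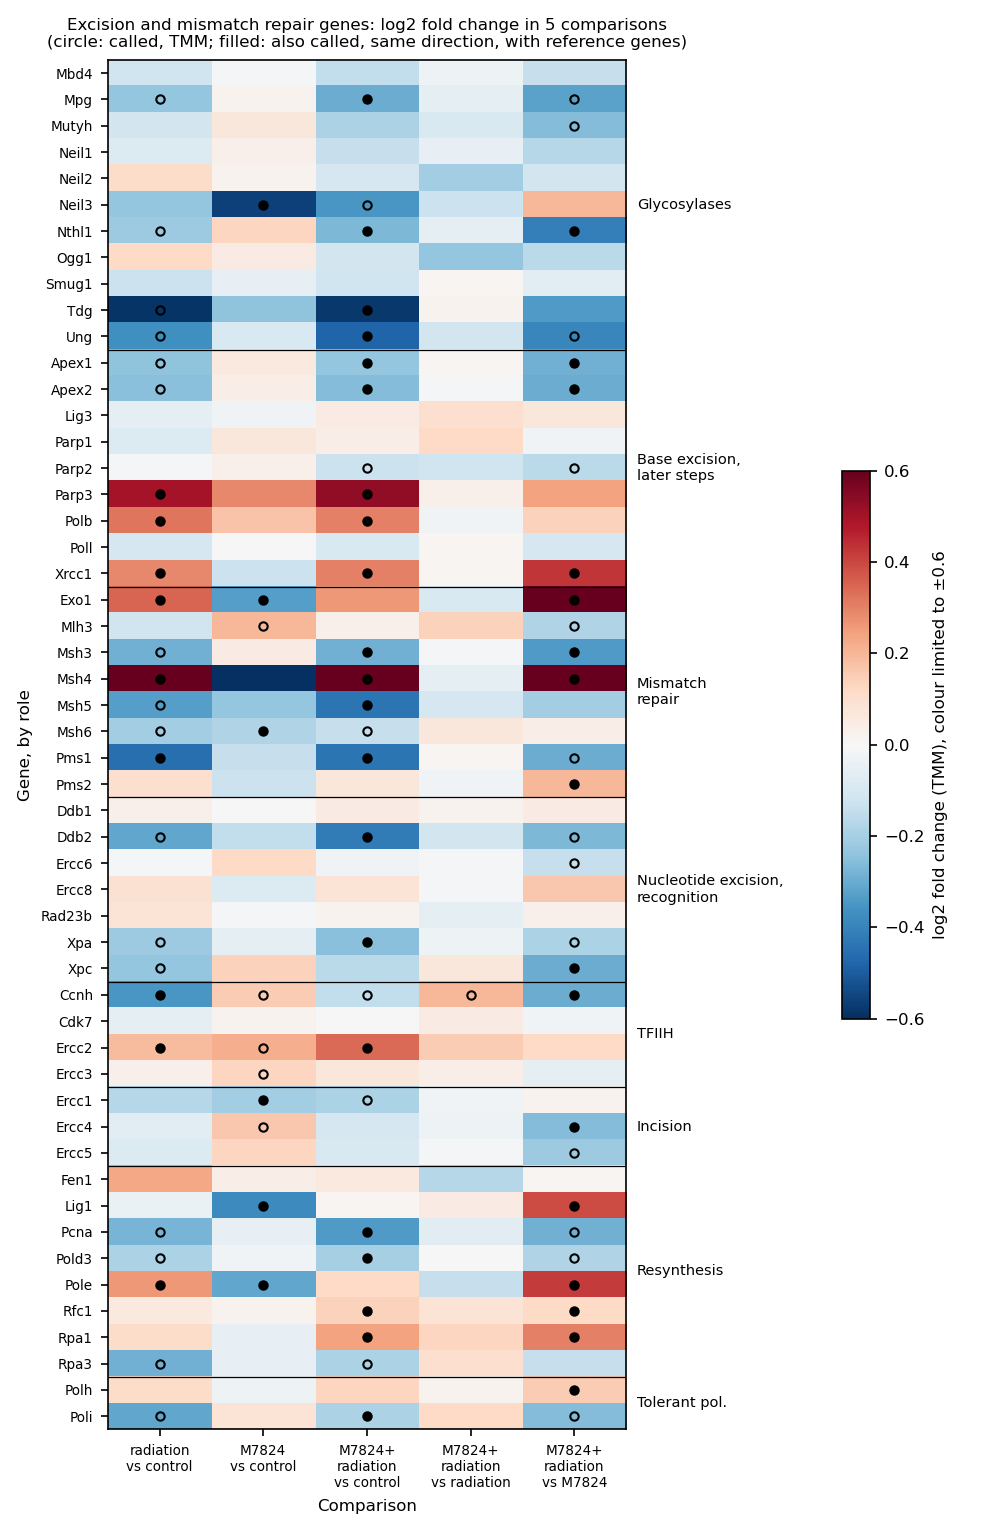
Log2 fold change (TMM) of 52 of the 55 genes (rows, ordered by role) in 5 comparisons (columns); colour runs from blue (lower) to red (higher) and is limited to ±0.6. Circles mark calls with TMM and filled circles mark those called in the same direction with the reference genes: the column of M7824+radiation against radiation holds 1 circle, for Ccnh, and that circle is open.

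Among the 10 mismatch repair genes, 2 were higher and 6 lower after radiation with TMM (median log2 fold change -0.20). Of all tested genes 20.5% were higher and 21.1% lower. With the reference genes 3 of the 10 were higher and 2 lower (all genes: 40.7% and 7.61%). The amplicons of Exo1, which degrades the faulty strand (chr1:175904338-175904432, plus strand), and of Msh4 (chr3:153866341-153866435, minus strand) lie in coding sequence on GRCm38. They are shown because Msh4 separated radiation from control tumours and Exo1 was called with each single treatment. Neither shares a run of 25 bases with a transcript of another gene in the GENCODE M21 set.
Exo1: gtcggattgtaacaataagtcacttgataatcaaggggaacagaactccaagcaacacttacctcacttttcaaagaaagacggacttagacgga
Msh4: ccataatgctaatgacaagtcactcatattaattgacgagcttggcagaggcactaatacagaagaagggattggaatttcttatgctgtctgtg

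The MutS genes Msh6 and Msh3 were lower after radiation with TMM alone. Msh6, of the sensor of single mismatches, fell by 0.21 on the log2 scale (SE 0.05, adjusted p = 0.000269; reference genes -0.05, adjusted p = 0.48), and its 9 radiation tumours lay between 2010 and 2140 CPM against 2120 to 2740 in control. Msh3, of the sensor of small loops, had a median of 673 CPM in control (501 to 780), 666 with M7824 (625 to 740), 526 with radiation (495 to 597) and 546 with M7824+radiation (441 to 603). The control and radiation tumours overlapped, while the highest M7824+radiation value lay below the lowest M7824 value. Its log2 fold change was -0.29 after radiation (SE 0.06, adjusted p = 0.000261; reference genes -0.12, adjusted p = 0.0692) and -0.34 in M7824+radiation against M7824 (adjusted p = 1.77e-05; reference genes -0.19, adjusted p = 0.00307). In M7824+radiation against control it was -0.29 (adjusted p = 0.000148; reference genes -0.24, adjusted p = 0.000373).

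Of the MutL genes, Pms1 was lower in both irradiated groups under both scalings. Its median was 411 CPM in control (332 to 525), 389 with M7824 (316 to 442), 303 with radiation (272 to 364) and 299 with M7824+radiation (247 to 359), so the groups overlapped at their edges. The log2 fold change was -0.45 after radiation (SE 0.08, adjusted p = 4.56e-05; reference genes -0.29, adjusted p = 0.00502) and -0.44 with M7824+radiation (adjusted p = 4.93e-05; reference genes -0.40, adjusted p = 0.000222). Mlh3, another MutL gene, was higher with M7824 on the TMM scale (0.20, SE 0.06, adjusted p = 0.0131; reference genes 0.10, adjusted p = 0.207). Pms2, the endonuclease of mismatch repair, was not called after radiation with TMM (0.10, adjusted p = 0.223) but was higher with the reference genes (0.26, adjusted p = 0.00473). In M7824+radiation against M7824 it was higher under both scalings (0.20 with TMM, adjusted p = 0.0068). The whole Pms2 amplicon also matches transcripts of the gene model Gm42421, so its counts cannot be assigned to Pms2 alone.

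Msh4 and Msh5 form the MutS dimer of meiotic crossing over. Msh4 was barely detected in unirradiated tumours, with 1 to 8 counts per control library (median 6) and 0 to 7 per M7824 library (median 2), 2 of which held none. A count of 0 allows up to 3 counts, or 9.53 and 8.84 CPM in those libraries. Radiation libraries held 14 to 34 counts (median 19) and M7824+radiation libraries 9 to 28 (median 22). In CPM the medians were 8.99 in control (1.84 to 18.2), 3.58 with M7824 (0 to 10.7), 31.0 with radiation (20.8 to 40.3) and 31.6 with M7824+radiation (13.4 to 46.9). Every radiation tumour lay above every control tumour, and every M7824+radiation tumour above every M7824 tumour.

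The rise of Msh4 was 3.25-fold after radiation (log2 fold change 1.70, SE 0.30, adjusted p = 2.36e-05; reference genes 1.87, adjusted p = 8.88e-06), the largest fold change of the 55 genes there under both scalings. It was 3.13-fold with M7824+radiation against control (1.65, SE 0.30, adjusted p = 3.45e-05). Against M7824 the log2 fold change was 2.47 (SE 0.35, adjusted p = 6.1e-07), but the M7824 group held 2 libraries at 0, so this fitted size depends on the prior count. Over all 36 libraries Msh4 had 440 counts, so few counts stand behind these values. It passed the filter on low counts through the irradiated groups, where it is high. Control libraries held at most 8 counts and M7824 libraries at most 7. Msh5 went the other way on the TMM scale, from a mean of 370 ± 87.0 CPM in control to 293 ± 35.7 with radiation (SD, n = 9; log2 fold change -0.33, edgeR adjusted p = 0.0202; reference genes -0.17, adjusted p = 0.282). In M7824+radiation against control Msh5 was lower with TMM (-0.44, adjusted p = 0.00241) and with the reference genes (-0.39, adjusted p = 0.0129).

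Exo1 rose with radiation and fell with M7824 under both scalings. Its median was 555 CPM in control (362 to 705), 386 with M7824 (344 to 622), 660 with radiation (550 to 864) and 628 with M7824+radiation (499 to 760). Control tumours spread over both treated ranges, and 1 M7824 tumour, mouse 18, stood at 622 CPM while the next was at 446. The log2 fold change was 0.35 after radiation (SE 0.11, adjusted p = 0.0133; reference genes 0.52, adjusted p = 0.00165) and -0.33 with M7824 (SE 0.12, adjusted p = 0.0319; reference genes -0.43, adjusted p = 0.0169). M7824+radiation stood above M7824 by 0.60 (SE 0.12, adjusted p = 6.7e-05), with 9 of 9 tumours above the M7824 median. Against control the combination did not pass the test with TMM (0.26, adjusted p = 0.0566), and the M7824 call was lost when only the 2 groups were fitted (adjusted p = 0.0757).

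**Figure D2:**
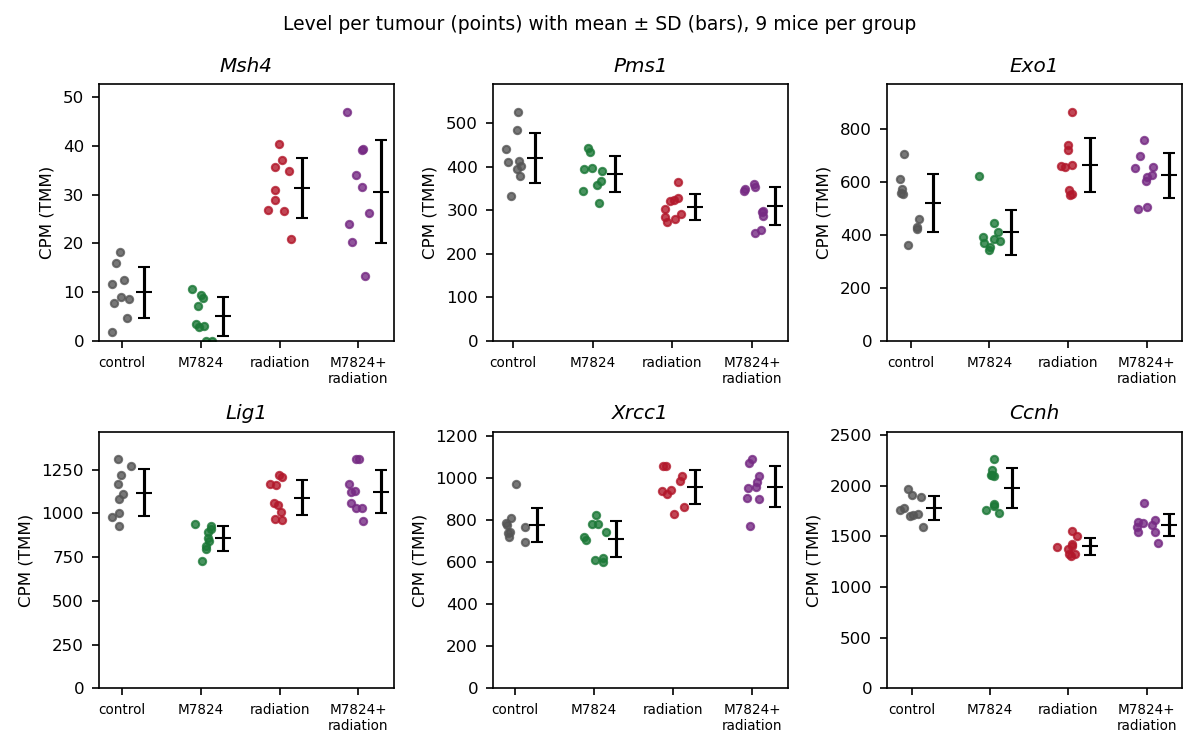
CPM after TMM scaling (vertical axes, from 0) of Msh4, Pms1, Exo1, Lig1, Xrcc1 and Ccnh in each of the 36 tumours, by group; points are mice, bars are mean ± SD of 9 mice. Radiation tumours lie wholly above control tumours for Msh4 and wholly below them for Ccnh, and the Lig1 values with M7824 (728 to 941 CPM) lie wholly below those with M7824+radiation (957 to 1310 CPM).

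Of the 11 glycosylases, which recognise and cut out single damaged bases, 0 were higher and 4 lower after radiation with TMM (median -0.13). The 4 were Mpg, Nthl1, Tdg and Ung (all genes: 20.5% higher and 21.1% lower). With the reference genes none of the 11 was called after radiation (all genes: 40.7% higher and 7.61% lower). Of the 101 runs of 25 bases in the Tdg amplicon, 60 also occur in the processed pseudogene Tdg-ps, so its counts may hold both. Mpg, whose whole amplicon also matches transcripts of the overlapping gene Nprl3, missed the threshold without radiation mouse 24 (-0.19, adjusted p = 0.0958). In M7824+radiation against control 5 glycosylases were lower with TMM (all genes: 24.2%). Mpg, Nthl1, Tdg and Ung stayed lower with the reference genes (all genes: 15.1%), while Neil3 did not (-0.19, adjusted p = 0.141). Mbd4, Neil1, Neil2, Ogg1 and Smug1 were called in no comparison under either scaling. Mutyh was lower only in M7824+radiation against M7824, with TMM (-0.26, adjusted p = 0.0137; reference genes -0.11, adjusted p = 0.362). Neil2 was low, at 5 to 28 counts per library, which limits what could be seen for it.

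Ung removes uracil from DNA. Its median was 2400 CPM in control (1850 to 2890), 2140 with M7824 (1760 to 2550), 1830 with radiation (1290 to 2050) and 1610 with M7824+radiation (1350 to 1920). In each irradiated group 9 of 9 tumours lay below the control median, though the ranges overlapped. The log2 fold change was -0.37 after radiation (SE 0.09, adjusted p = 0.00121; reference genes -0.21, adjusted p = 0.0985) and -0.48 with M7824+radiation (SE 0.09, adjusted p = 5.14e-05; reference genes -0.43, adjusted p = 0.00116).

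Nthl1, which removes oxidised pyrimidines, had a median of 428 CPM in control (393 to 567), 489 with M7824 (379 to 580), 384 with radiation (345 to 486) and 384 with M7824+radiation (303 to 422). The ranges overlapped in every pair of groups. It was lower in M7824+radiation than with M7824 (-0.41, SE 0.08, adjusted p = 5.82e-05; reference genes -0.25, adjusted p = 0.00424) and than in control (-0.27, adjusted p = 0.00399; reference genes -0.22, adjusted p = 0.0127). After radiation alone the call rested on TMM (-0.22, adjusted p = 0.0228; reference genes -0.06, adjusted p = 0.557).

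Neil3, a glycosylase of dividing cells that also unhooks DNA crosslinks, fell with M7824 from a mean of 455 ± 86.3 CPM in control to 309 ± 43.9 (n = 9, ± SD), a 1.47-fold difference (log2 fold change -0.56, SE 0.10, edgeR adjusted p = 9e-05; reference genes -0.59, adjusted p = 0.000162). All 9 M7824 tumours lay below the control median. The second Neil3 amplicon, on panel 2, gave -0.47 (SE 0.10, adjusted p = 0.00039) in the same tumours. Radiation alone gave -0.23 (adjusted p = 0.0672), and the interaction gave 0.43 (SE 0.14, adjusted p = 0.0535), which did not pass the test. In M7824+radiation against M7824 Neil3 was at 0.20 with TMM (adjusted p = 0.0869) and was higher with the reference genes (0.39, adjusted p = 0.0029).

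Of the 9 genes for later base excision steps, the same 3 were higher after radiation with TMM (all genes: 20.5%) and the reference genes (40.7%). They were Xrcc1, the scaffold of single-strand break repair, Polb, the gap-filling polymerase, and Parp3, an ADP-ribosyltransferase that responds to DNA breaks. The Xrcc1 amplicon, shown because its rise was the firmest of the 3, lies in coding sequence at chr7:24566408-24566499 of GRCm38, plus strand, and shares no run of 25 bases with other transcripts.
Xrcc1: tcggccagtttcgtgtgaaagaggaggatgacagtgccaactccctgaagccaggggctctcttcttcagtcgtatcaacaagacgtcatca

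Xrcc1 had a median of 768 CPM in control (695 to 974), 722 with M7824 (600 to 827), 944 with radiation (829 to 1060) and 957 with M7824+radiation (773 to 1090). Control mouse 7, at 974 CPM, was the only control tumour inside the radiation range, the next being at 811. The rise was 1.23-fold after radiation (log2 fold change 0.29, SE 0.07, adjusted p = 0.000769; reference genes 0.46, adjusted p = 1.11e-05). The same fold was found with M7824+radiation against control (0.30, adjusted p = 0.000526), and against M7824 it was 1.35-fold (0.43, SE 0.07, adjusted p = 4.37e-06; reference genes 0.58, adjusted p = 2.21e-07).

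Polb rose from a mean of 2860 ± 484 CPM in control to 3570 ± 458 with radiation (n = 9, ± SD; edgeR log2 fold change 0.32 with SE 0.10, adjusted p = 0.0106; reference genes 0.48, adjusted p = 0.00161) and stood at 3520 ± 624 with M7824+radiation (0.30, adjusted p = 0.0142). Parp3 rose 1.42-fold after radiation, from 897 ± 228 to 1270 ± 186 CPM (0.50, SE 0.12, adjusted p = 0.00124; reference genes 0.67, adjusted p = 0.000126), and 1.45-fold with M7824+radiation (0.53, adjusted p = 0.00055). Of its relatives, Parp1, the main sensor of strand breaks, was called in no comparison (-0.08 after radiation), and Parp2 was not called after radiation (-0.01). Lig3, the ligase that works with Xrcc1, and Poll were called with TMM in no comparison. With the reference genes Lig3 was higher in M7824+radiation against M7824.

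Apex1 and Apex2 cut the strand beside a missing base, Apex1 being the main enzyme. Apex1 had a median of 2860 CPM in control (2610 to 3190), 2850 with M7824 (2620 to 3400), 2300 with radiation (2170 to 2720) and 2430 with M7824+radiation (2240 to 2700). In both irradiated groups 9 of 9 tumours lay below the control median. Its log2 fold change was -0.24 after radiation (SE 0.06, adjusted p = 0.000587; reference genes -0.08, adjusted p = 0.236), -0.23 with M7824+radiation (adjusted p = 0.000852; reference genes -0.19, adjusted p = 0.00544) and -0.29 against M7824 (adjusted p = 5.7e-05; reference genes -0.14, adjusted p = 0.0338). Apex2 had the same calls, with -0.25, -0.26 and -0.30 on the TMM scale. Both genes were therefore lower in M7824+radiation under both scalings and lower in radiation alone with TMM alone.

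Among the 8 recognition factors of nucleotide excision repair, Ddb2, Xpa and Xpc were lower after radiation with TMM and 0 were higher. Of all tested genes 21.1% were lower and 20.5% higher. With the reference genes 4 of the 8 were higher and 0 lower (all genes: 40.7% and 7.61%). Ddb2, the part of the ultraviolet damage sensor that binds the lesion, had a median of 459 CPM in control (394 to 510), 412 with M7824 (362 to 517), 363 with radiation (314 to 426) and 327 with M7824+radiation (266 to 448). All tumours of each irradiated group lay below the control median. The log2 fold change was -0.42 with M7824+radiation (SE 0.08, adjusted p = 8.97e-05; reference genes -0.38, adjusted p = 9.71e-05) and -0.31 after radiation (adjusted p = 0.00309; reference genes -0.14, adjusted p = 0.114). Its partner Ddb1 was not called with TMM in any comparison (0.03 after radiation), at a mean of 13400 ± 783 CPM in control and 13600 ± 1200 with radiation (SD, n = 9). With the reference genes Ddb1 was higher after radiation (0.19, adjusted p = 0.000286).

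Xpc, which detects helix distortion genome-wide, was at -0.23 after radiation with TMM (adjusted p = 0.0172; reference genes -0.07, adjusted p = 0.378). Rad23b, which stabilises it, was at 0.08 with TMM (adjusted p = 0.155) and was higher with the reference genes (0.24, adjusted p = 0.00224). Ercc6 and Ercc8, which act where transcription stalls, were not called after radiation with TMM (-0.01 and 0.09). With the reference genes Ercc8 was higher (0.26, adjusted p = 0.0133) and Ercc6 was not called (0.16, adjusted p = 0.0624). Xpa, the scaffold that verifies the lesion, was lower after radiation with TMM alone (-0.22, adjusted p = 0.00141; reference genes -0.06, adjusted p = 0.42) and lower with M7824+radiation under both (-0.25, adjusted p = 0.00034; reference genes -0.21, adjusted p = 0.00616).

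The panels held 4 genes of TFIIH: the helicases Ercc2 and Ercc3 and the kinase pair Ccnh and Cdk7. Ccnh and Ercc2 moved in opposite directions after radiation under both scalings. The Ccnh amplicon lies in coding sequence at chr13:85197390-85197484 of GRCm38, plus strand. It is shown because Ccnh was called in all 5 pairwise comparisons with TMM, 2 of them also with the reference genes, while part of its amplicon, in capitals, also occurs in the processed pseudogene Gm12955, with 50 bases shared. Counts from the 2 cannot be told apart within that part.
Ccnh: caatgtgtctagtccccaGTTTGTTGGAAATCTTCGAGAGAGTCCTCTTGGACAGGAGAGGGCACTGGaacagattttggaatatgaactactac

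Ccnh had a median of 1760 CPM in control (1590 to 1970), 2090 with M7824 (1730 to 2260), 1390 with radiation (1310 to 1550) and 1610 with M7824+radiation (1430 to 1830). All radiation tumours lay below all control tumours, and the M7824+radiation tumours lay between, overlapping both. The log2 fold change was -0.35 after radiation (SE 0.05, adjusted p = 1.81e-06; reference genes -0.18, adjusted p = 0.00239) and -0.30 in M7824+radiation against M7824 (adjusted p = 1.41e-05; reference genes -0.15, adjusted p = 0.0108). Against control, M7824+radiation gave -0.15 (adjusted p = 0.0181), a call lost with the reference genes (-0.10, adjusted p = 0.0779) and with total counts (-0.11, adjusted p = 0.0723). With M7824 alone it was at 0.15 (adjusted p = 0.0303; reference genes 0.04, adjusted p = 0.557; only the 2 groups fitted, adjusted p = 0.0502). M7824+radiation stood above radiation by 0.20 (SE 0.05, adjusted p = 0.0103), which the reference genes gave as 0.08 (adjusted p = 0.286).

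Ercc2 had a median of 513 CPM in control (449 to 617), 583 with M7824 (529 to 742), 598 with radiation (522 to 643) and 675 with M7824+radiation (566 to 749). In all 3 treated groups 9 of 9 tumours lay above the control median, with overlapping ranges. It was higher with M7824+radiation (0.34, SE 0.07, adjusted p = 7.46e-05; reference genes 0.39, adjusted p = 2.92e-06) and with radiation (0.19, adjusted p = 0.0229; reference genes 0.35, adjusted p = 1.43e-05), and with M7824 on the TMM scale (0.22, adjusted p = 0.0149; reference genes 0.11, adjusted p = 0.177). After radiation the call was lost when TMM used the other genes only (0.14, adjusted p = 0.0731). Ercc3 was at 0.03 after radiation (adjusted p = 0.612) and Cdk7 at -0.06, neither called with TMM. With the reference genes Ercc3 was higher (0.20, adjusted p = 0.00101) and Cdk7 was not called (0.11, adjusted p = 0.053).

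The 3 incision genes were not called after radiation under either scaling. Ercc4 and Ercc1 form 1 nuclease, yet they were called in opposite directions with M7824 on the TMM scale: Ercc4 at 0.16 (SE 0.05, adjusted p = 0.0139; reference genes 0.05, adjusted p = 0.381) and Ercc1 at -0.21 (adjusted p = 0.0363; reference genes -0.32, adjusted p = 0.00125; total counts -0.22, adjusted p = 0.0627). Ercc4 had a median of 766 CPM in control (683 to 835), 867 with M7824 (716 to 989), 718 with radiation (688 to 806) and 703 with M7824+radiation (663 to 814), and the ranges overlapped in every pair of groups. In M7824+radiation it was lower than with M7824 (-0.26, SE 0.05, adjusted p = 4.14e-05; reference genes -0.11, adjusted p = 0.028). Ercc5, the nuclease of the other side, was lower there with TMM alone (-0.22, adjusted p = 0.0026; reference genes -0.07, adjusted p = 0.421).

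The 8 genes of resynthesis and ligation did not move as a block. After radiation Pole was higher and Pcna, Pold3 and Rpa3 lower with TMM (all genes: 20.5% higher and 21.1% lower). With the reference genes 4 were higher (Fen1, Pole, Rfc1 and Rpa1) and 0 lower (all genes: 40.7% and 7.61%). Lig1, which joins Okazaki fragments and long repair patches, was called in the interaction test under both scalings. Its amplicon, shown for that reason, lies in coding sequence at chr7:13303191-13303281 of GRCm38, plus strand, with no run of 25 bases shared with other transcripts.
Lig1: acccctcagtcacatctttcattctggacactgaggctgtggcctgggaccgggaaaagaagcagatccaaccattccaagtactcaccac

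Lig1 had a median of 1110 CPM in control (927 to 1310), 860 with M7824 (728 to 941), 1060 with radiation (963 to 1220) and 1120 with M7824+radiation (957 to 1310). M7824 tumours were low, and every one lay below every M7824+radiation tumour. M7824 lowered it 1.30-fold without radiation (log2 fold change -0.38, SE 0.07, adjusted p = 9.73e-05; reference genes -0.49, adjusted p = 4.91e-05). With radiation the difference made by M7824 was 0.05 on the log2 scale, and the interaction was 0.43 (SE 0.10, adjusted p = 0.00454; reference genes 0.41, adjusted p = 0.0287). Msh6 was the other gene with a called interaction on the TMM scale (0.25, SE 0.06, edgeR adjusted p = 0.0114). Its means were 2400 ± 245 CPM in control, 2120 ± 99.6 with M7824, 2070 ± 51.1 with radiation and 2180 ± 118 with both (SD, n = 9). With TMM Msh6 was lower than control with M7824 (-0.18, adjusted p = 0.00338). Unlike Lig1, it was also lower with radiation (-0.21, adjusted p = 0.000269) and with both (-0.14, adjusted p = 0.00965). With the reference genes the Msh6 interaction did not pass (0.24, adjusted p = 0.0885).

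Pole, the catalytic subunit of the leading-strand polymerase, fell with M7824 from a mean of 714 ± 137 to 576 ± 71.1 CPM (n = 9, ± SD; edgeR log2 fold change -0.31 with SE 0.09, adjusted p = 0.0148; reference genes -0.41, adjusted p = 0.00685) and rose after radiation to 853 ± 93.6 CPM (0.26, adjusted p = 0.0243; reference genes 0.42, adjusted p = 0.00215). The call after radiation was lost when TMM used the other genes only (0.21, adjusted p = 0.0737) and when only the 2 groups were fitted (adjusted p = 0.069). With TMM the other resynthesis genes Pcna, Fen1, Rfc1, Rpa1, Rpa3 and Pold3 lay between -0.05 and 0.04 with M7824 and were not called. With the reference genes they lay between -0.17 and -0.06, and Pold3 was called lower (-0.13, adjusted p = 0.043). Of 15 proliferation markers 2 were on the panels. Mki67 was lower with M7824 (-0.35, SE 0.08, adjusted p = 0.00135; reference genes -0.38, adjusted p = 0.00331), and so was Birc5 with TMM (-0.29, adjusted p = 0.0409; reference genes -0.33, adjusted p = 0.056). Their summed level had a median of 5800 CPM in control (4480 to 7270), 4640 with M7824 (3390 to 5540), 5570 with radiation (5040 to 6640) and 5600 with M7824+radiation (4450 to 6250). Mki67 also had a called interaction with TMM (0.36, adjusted p = 0.0459; reference genes 0.34, adjusted p = 0.146). The part of the number of dividing cells in these results was not tested.

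Pcna, the sliding clamp, is also made in dividing cells. Its median was 5270 CPM in control (4600 to 6620), 5250 with M7824 (4370 to 6010), 4400 with radiation (4140 to 5240) and 4420 with M7824+radiation (3630 to 4830). M7824 alone gave a log2 fold change of -0.05, not called. It was lower after radiation with TMM (-0.28, SE 0.06, adjusted p = 0.000711; reference genes -0.12, adjusted p = 0.243) and with M7824+radiation under both scalings (-0.34, adjusted p = 4.44e-05; reference genes -0.30, adjusted p = 0.00297). Fen1, the flap nuclease, was at 0.04 with M7824 and 0.23 after radiation (adjusted p = 0.0542), but most of its amplicon overlaps the antisense model Gm10143.

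Rpa1, the large subunit that coats single-stranded DNA, and Rfc1, the large subunit of the clamp loader, were higher with M7824+radiation. Rpa1 had a median of 2920 CPM in control (2570 to 3430), 2930 with M7824 (2490 to 3070), 3190 with radiation (2860 to 3490) and 3480 with M7824+radiation (3090 to 4070). Its M7824+radiation tumours lay wholly above the M7824 tumours (log2 fold change 0.30, SE 0.06, adjusted p = 3.46e-05; reference genes 0.45, adjusted p = 4.87e-06). Against control it was at 0.24 (adjusted p = 0.000473), and the second amplicon, on panel 1, gave 0.29 against M7824 (adjusted p = 1.46e-05) and 0.14 against control (adjusted p = 0.0192). That amplicon alone was also called lower with M7824 (-0.15, adjusted p = 0.0295) and in the interaction (0.22, adjusted p = 0.0498), where the panel 2 amplicon gave -0.05 and 0.19 (adjusted p = 0.522 and 0.147). Rfc1 was at 0.14 against control (adjusted p = 0.00829) and 0.12 against M7824 (adjusted p = 0.022), and neither call held when TMM used the other genes only (adjusted p = 0.0659 and 0.116). The small subunit Rpa3 was at -0.29 after radiation with TMM (adjusted p = 0.00165; reference genes -0.12, adjusted p = 0.142).

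**Figure D3:**
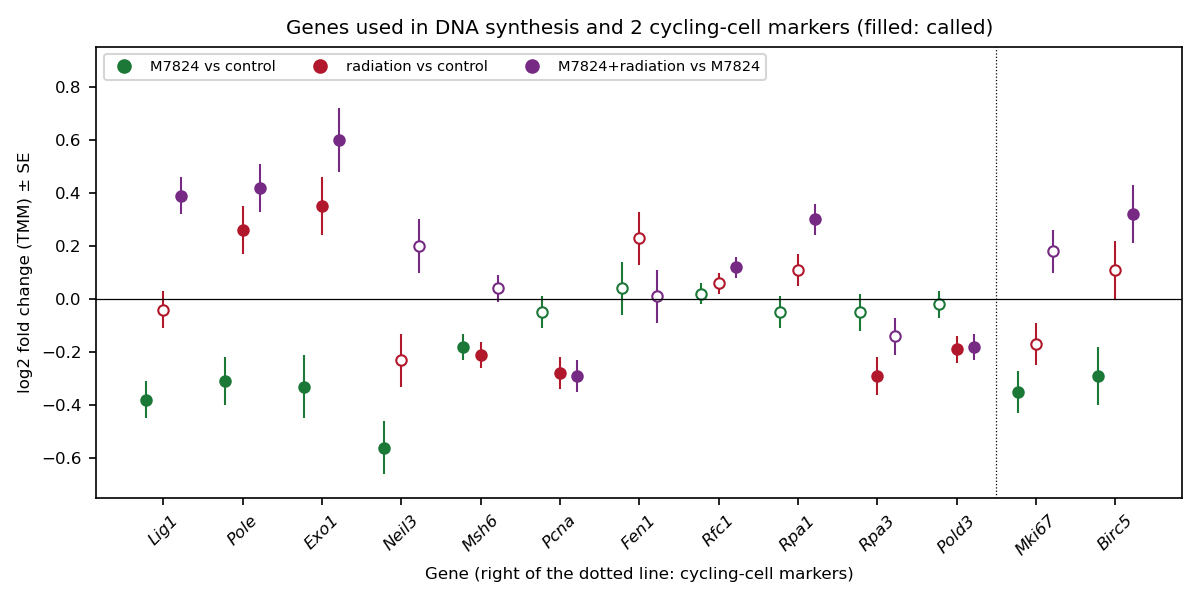
Log2 fold change (TMM, vertical axis) ± SE of 11 genes used in DNA synthesis and repair and of the cycling-cell markers Mki67 and Birc5, in 3 comparisons; filled points are called. With M7824 (green) Lig1, Pole, Exo1, Neil3, Msh6, Mki67 and Birc5 lie below 0 and are called, while Pcna, Fen1, Rfc1, Rpa1, Rpa3 and Pold3 lie between -0.05 and 0.04 and are not.

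The panels held 2 polymerases that copy past lesions, Poli and Polh. Poli was lower after radiation with TMM (-0.31, SE 0.08, adjusted p = 0.00124; reference genes -0.14, adjusted p = 0.0537), from a mean of 567 ± 57.3 CPM in control to 459 ± 51.4 (SD, n = 9). Polh, which copies past ultraviolet lesions, was at 0.11 (adjusted p = 0.111; reference genes 0.27, adjusted p = 0.000509), and it was higher in M7824+radiation than with M7824 under both scalings (0.15, adjusted p = 0.0181), though not when TMM used the other genes only (0.12, adjusted p = 0.0722).

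**Figure D4:**
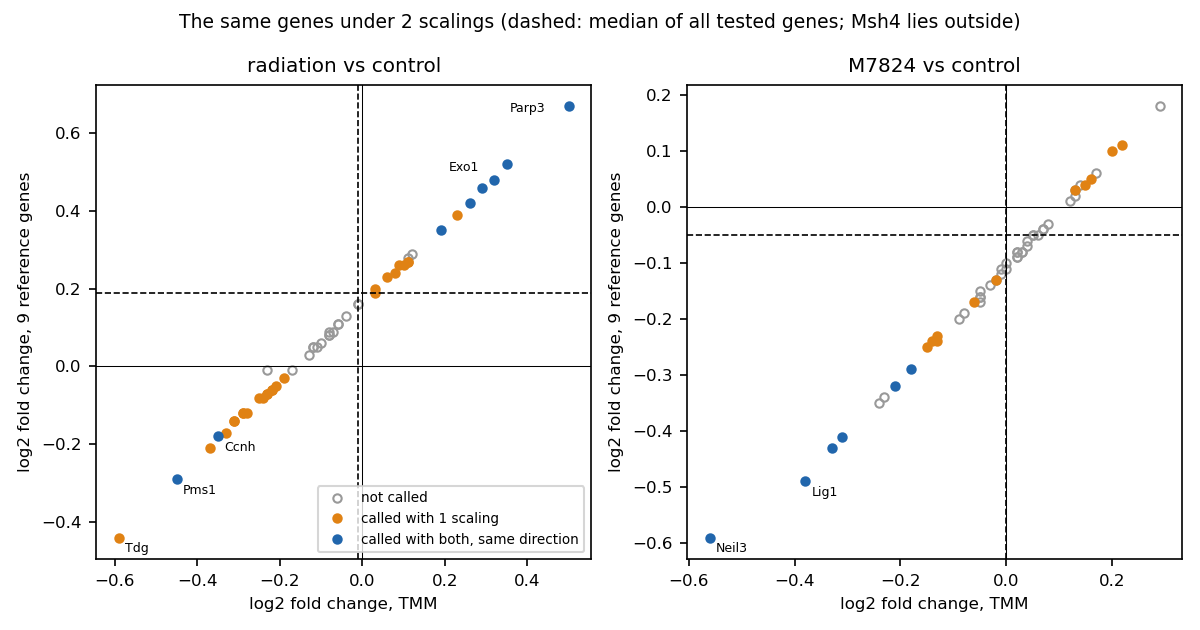
Log2 fold change of the same 52 genes, without Msh4, with TMM (horizontal axis) and with 9 reference genes (vertical axis), for radiation (left) and M7824 (right) against control; dashed lines are the medians of all 1038 tested genes. The points lie on a line shifted up for radiation and down for M7824, so genes near 0 cross it: blue points, such as Pms1, Ccnh, Parp3 and Exo1 on the left and Neil3 and Lig1 on the right, are called with both scalings.

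Further genes outside the name rule were taken from a separate list, drawn up for excision repair and damage tolerance, of which 11 were on the panels. Not every gene on it, Slk among them, is an established factor of these pathways. After radiation 3 were higher and 2 lower with TMM (all genes: 20.5% and 21.1%). Mgmt, which removes alkyl groups from guanine directly, had a median of 164 CPM in control (127 to 400), 221 with M7824 (158 to 315), 407 with radiation (243 to 568) and 385 with M7824+radiation (238 to 630). It rose by 1.17 on the log2 scale after radiation (SE 0.19, adjusted p = 6.34e-06; reference genes 1.33, adjusted p = 4.35e-06) and by 1.17 with M7824+radiation (adjusted p = 5.43e-06), with 1 control tumour reaching into the irradiated range. The exonuclease Trex1 was at 0.44 after radiation (adjusted p = 5.48e-05) and stayed higher with the reference genes (0.65, adjusted p = 4.33e-06). Hmgb1 was lower (-0.51, adjusted p = 0.000404; reference genes -0.30, adjusted p = 0.0115), and Slk was lower with TMM alone (-0.17, adjusted p = 0.00055). With M7824, Rad18, a ligase that marks Pcna at stalled forks, was lower (-0.39, adjusted p = 0.000368) and the polymerase Rev1 higher (0.27, adjusted p = 8.18e-06), each under both scalings.

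Xpc, Ddb2, Pcna and Polh are known targets of p53 in some other settings, which need not include mouse cells or 4T1. Listed p53 targets outside the name rule were read beside them, and the part of p53 in any of these values was not tested. Of 9 listed, 4 were on the panels, and after radiation 3 were higher and 1 lower with TMM (all genes: 20.5% and 21.1%). Cdkn1a, which encodes the cell cycle inhibitor p21, rose from a median of 937 CPM in control (806 to 2760) to 2870 with radiation (1950 to 4010) and 2500 with M7824+radiation (1670 to 4260). Its log2 fold change was 1.39 after radiation (SE 0.19, adjusted p = 3.5e-07), Bax was at 0.27 (adjusted p = 0.00685) and Fas at 0.75 (adjusted p = 0.000511), all higher under both scalings, and Gadd45a was lower with TMM (-0.41, adjusted p = 0.0172). Over the same tumours Xpc, Ddb2 and Pcna were at -0.23, -0.31 and -0.28, and Polh at 0.11, so none of the 4 was called higher with TMM. With the reference genes Polh was called higher (0.27, adjusted p = 0.000509). Xpc, Ddb2 and Pcna were not called with them (-0.07, -0.14 and -0.12).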

How the data were processed

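Total RNA of 36 tumours was read with 2 targeted amplicon panels (72 libraries), with groups taken from the labels. Per the file headers, the deposited table holds raw whole-number counts, 1 row per amplicon. Whether these are reads or molecular barcodes, and which aligner was used: not given in the sources used here. The authors also deposited log2 values (regularized log, per the deposited file's name; DESeq2 is in the submitters' processing notes), which served 1 alternative test. Position columns are headed GRCh38, but 1277 of 1278 amplicons, and all 55 genes described, lay inside the named gene on mouse GRCm38 (GENCODE M21), whose transcripts gave the printed sequences. Genomic DNA control rows (2.32e-05% of counts) were left out.

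The test was edgeR 4.0.16 under R 4.3.3, for each panel on its own, all 4 groups, TMM, the default filter by group, robust quasi-likelihood F test, two-sided, Benjamini-Hochberg adjustment over 1038 genes. SE was taken as |log2 fold change| over the root of F. A second scaling used the geometric mean of 9 reference genes (count plus 0.5). Panel 1 libraries held 959532 to 2616197 counts and panel 2 libraries 314621 to 841046; floors cover counting error only. The scripts were tested on simulated data. DESeq2 1.42.0 and limma 3.58.1 gave alternatives. Each mouse is 1 replicate and mouse numbers are not shared between groups. Marker lists covered proliferation, epithelium, leukocytes, T cells, B cells, macrophages, neutrophils, fibroblasts, endothelium, muscle and p53 targets.

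The 55 genes, picked by symbol, and the gene lists were chosen with earlier results of these data known. Full values are given for up to 8 called genes with the smallest adjusted p per pairwise comparison and every gene with a called interaction; lowest, median and highest of 9 mice for up to 16 genes called in at least 2 of the 5 comparisons; other genes by count, or by name to complete a complex. Results of a few genes, sequences included, are not reported here, though they stay in every fit and count.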

Additional observations from a re-analysis of the deposited data

Results flagged for a closer look

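The interaction of M7824 and radiation was called for 2 genes: the log2 change with M7824 differed between irradiated and unirradiated tumours by 0.43 for Lig1 (edgeR adjusted p = 0.00454) and by 0.25 for Msh6 (adjusted p = 0.0114).

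Of 76 groups of 9 tumours examined over 19 genes, 5 held a tumour far from the rest, and chance alone marks about 1 group in 20. Exo1 stood at 622 CPM in M7824 mouse 18, with the next tumour at 446. Nthl1 was at 379 CPM in M7824 mouse 13 (next 478) and at 486 CPM in radiation mouse 25 (next 410). Pcna reached 5240 CPM in radiation mouse 23 (next 4550), and Xrcc1 974 CPM in control mouse 7 (next 811).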

How the results depend on the processing

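Reference gene factors lost 43 of 102 single calls and turned 1. With them the counts of genes higher and lower were 17 and 3 after radiation (TMM 7 and 20), 0 and 12 with M7824 (TMM 5 and 6), 21 and 8 in M7824+radiation against M7824 (TMM 9 and 22), 0 and 3 (3 in all) in M7824+radiation against radiation (TMM 1 and 0), and 1 and 1 in the interaction (TMM 2 and 0). DESeq2 called 2 genes, both higher, in M7824+radiation against radiation (Ccnh among them). In the interaction it called 4, with Ercc4 lower and Lig1, Msh6 and Neil3 higher. The share of all tested genes called by DESeq2 was not worked out, so these counts have no background beside them. The cause of the differences between methods was not tested. Of the 102 calls 49 held under every alternative run and 53 were lost under at least 1, 33 of these with the reference genes only. Ercc6 in M7824+radiation against M7824 turned from -0.14 to 0.02 with the reference genes. Total counts lost 12 calls, TMM from other genes 5, fitting only the 2 groups compared 5 of 99, the smaller-total panel 1 of 5, no filter 1 (Ercc3 with M7824), and DESeq2 and limma on the deposited values 0. Leaving out control mouse 8 lost Parp2 (-0.12, adjusted p = 0.0639) and Poli (-0.18, adjusted p = 0.0554) in M7824+radiation against control. Leaving out radiation mouse 24 lost Mpg after radiation (-0.19, adjusted p = 0.0958) and Ercc6 against M7824 (-0.13, adjusted p = 0.0513). Leaving out M7824+radiation mouse 40 lost Ercc1 (-0.17, adjusted p = 0.0699) and Poli (-0.19, adjusted p = 0.0518) against control and Ercc6 against M7824 (-0.12, adjusted p = 0.0872). Other mice were not left out. Depth limits Msh4 (440 counts in all) and Neil2. No paired analysis was possible because the groups share no mouse numbers.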
